A study of Mus musculus with 6 samples.

Results

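The genes described here are 43 genes that copy the genome in S phase. They were taken by symbol from the deposited table of 55401 genes and are origin licensing factors, parts of the replication fork, enzymes that supply deoxynucleotides, and E2F and cyclin E genes. All 43 were found, 1 row each, and all 43 passed the filter on low counts. The table holds 6 poly(A) RNA-seq libraries of primary chondrocytes of the mouse, that is cartilage cells taken into culture. Of these, 3 are Nf2-knockout and 3 are control, and the series' design text names both by the floxed allele Nf2f/f, the controls without the deletion, and mentions differentiation. Nf2 encodes merlin, a membrane-associated protein upstream of the Hippo kinases. The tissue is cartilage in both groups, and all library names carry the tag D7, which the labels do not explain. The treatment label of the knockout libraries reads TCF21 overexpressing and that of the controls reads control. The Cre or other means of deletion, the age of the animals and whether replicates were separate animals or cultures are not stated in the labels. The p-values therefore measure the spread among these 6 libraries alone, and that spread may be technical.

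Library totals lay between 50906043 and 63748798 counts. Nf2 stood at 87.9, 101 and 97.3 CPM (counts scaled to library size, after TMM) in Nf2-knockout replicates 1 to 3 and at 126, 133 and 122 CPM in control replicates 1 to 3, a log2 fold change of −0.41 (SE 0.0866, adjusted p = 0.0305) that was lost whichever 1 library was left out. Tcf21 had 0, 2 and 0 counts in the knockout libraries and 0 in each control. The chondrocyte genes fixed as markers were all detected. Their summed level was 1822, 1975 and 1039.9 CPM in Nf2-knockout replicates 1 to 3 and 918, 1368 and 1283 CPM in control replicates 1 to 3, so the groups overlapped. Its members differed in direction: of the 15 genes, Col2a1 rose (1.33 on the log2 scale, adjusted p = 0.0446), Col9a2 fell (−1.55, adjusted p = 0.0482), and 9 had a log2 fold change below 0. The 10 fibroblast matrix genes summed to between 14715 and 16727 CPM in knockout and between 18338 and 21562 CPM in control libraries.

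Before a cell copies its DNA, the origin recognition complex, Cdc6 and Cdt1 load the ring-shaped MCM2-7 helicase onto origins in G1. Cdc45 and the GINS complex then join it to make the active helicase of the fork. Most of these genes are transcribed at the G1 to S boundary by E2F factors, which are released from the retinoblastoma protein when cyclin D and cyclin E kinases phosphorylate it. In the growth plate the proliferating chondrocytes express them, and they are switched off as cells become hypertrophic.

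The start regions of some of the 43 genes are shown first, because motifs of E2F factors were searched for there. RefSeq promoters of GRCm38.p6, from 250 bases before to 50 after the transcription start, were at hand for 36 of the 43 genes. Both strands were searched for the E2F core (written TTCCCGC in its first form, with the further forms TTGGCGC, and next TTCGCGC, and last TTGCCGC), for the CCAAT box, to which NF-Y binds, and for the cell cycle genes homology region (either TTTGAA or else TTCGAA), to which the MuvB complex binds. The sequences run 5′ to 3′ on the gene's strand from 250 bases before the start and stop before the first base annotated as an exon. Matches to any of the motifs on either strand are in capitals. Rrm2 (chr12:24708004-24708240, plus strand), Mcm2 (chr6:88898781-88899030, minus strand) and Uhrf1 (chr17:56303087-56303320, plus strand, the first of 2 starts) are among the 4 genes with the smallest p-values in the promoter table. Mcm5 (chr8:75109259-75109508, plus strand) was added after its matches were seen.
Rrm2: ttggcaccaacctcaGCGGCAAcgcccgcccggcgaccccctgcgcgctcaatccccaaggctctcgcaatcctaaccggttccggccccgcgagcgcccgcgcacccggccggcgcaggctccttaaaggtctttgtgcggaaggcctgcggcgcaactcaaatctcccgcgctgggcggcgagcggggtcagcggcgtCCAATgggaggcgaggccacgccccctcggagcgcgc
Mcm2: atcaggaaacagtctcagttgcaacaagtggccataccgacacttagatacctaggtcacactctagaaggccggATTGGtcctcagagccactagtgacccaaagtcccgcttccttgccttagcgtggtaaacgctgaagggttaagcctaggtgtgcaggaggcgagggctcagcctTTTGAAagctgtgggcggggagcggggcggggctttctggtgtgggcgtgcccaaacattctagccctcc
Uhrf1: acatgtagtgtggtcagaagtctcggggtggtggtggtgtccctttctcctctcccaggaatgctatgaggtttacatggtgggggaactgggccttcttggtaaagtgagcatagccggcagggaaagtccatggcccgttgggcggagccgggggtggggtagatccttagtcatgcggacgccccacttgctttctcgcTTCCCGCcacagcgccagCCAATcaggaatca
Mcm5: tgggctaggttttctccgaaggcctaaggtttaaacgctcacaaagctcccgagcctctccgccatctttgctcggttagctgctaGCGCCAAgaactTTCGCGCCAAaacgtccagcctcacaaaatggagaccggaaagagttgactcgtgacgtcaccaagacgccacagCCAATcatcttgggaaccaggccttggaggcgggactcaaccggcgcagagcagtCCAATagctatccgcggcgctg
Mcm5 held 3 E2F cores, at 164, 152 and 149 bases before the start, of which the last pair overlap each other, and CCAAT boxes at 77 and 22 bases before it. Uhrf1 had an E2F core 48 bases and a CCAAT box 30 bases before its first start. The E2F core of Rrm2 lay far upstream, at 235 bases, with a CCAAT box at 50 bases. Mcm2 had no E2F core in the window, but a CCAAT box at 175 and a homology region match at 70 bases. Ccne1, the other gene of those 4, held no match to any of the 3 motifs in its window.

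An E2F core was found in the promoters of 24 of the 36 genes (66.7%), against 18.3% of the 11972 tested genes with a promoter entry and 10.9% of all 27025 genes in the table. Related lists, described further on, held it often too: 51.4% of 35 other replication genes and 52.6% of 19 checkpoint and fork repair genes. It stood in 41.7% of 24 genes of the E2F and RB network and 38.9% of 18 further nucleotide genes. The median GC content was 61.3% both for the 36 genes and for the tested genes. The most matches, 5, were in Mcm6, followed by Mcm7 and Pola1 with 4 each. Among the matched genes that rose in knockout libraries by the test given further on, 8 of 13 held the core (61.5%), and among those that did not pass, 16 of 23 (69.6%). CCAAT boxes stood in 21 of 36 promoters (58.3%, tested genes 42.8%) and the homology region in 8 (22.2%, tested genes 16.9%). Mitosis genes had the other pattern, with an E2F core in 3 of 24 promoters (12.5%) and the homology region in 18 of 24 (75%). A match describes the letters in these windows and is not a bound site.

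**Figure D1:**
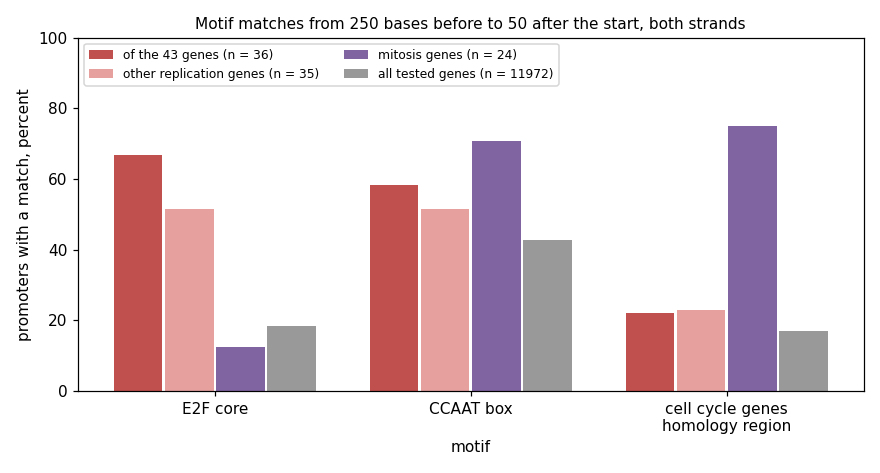
Percent of genes with a match to each motif (vertical axis) in the window from 250 bases before to 50 after the RefSeq start, on either strand, for 36 of the 43 genes, 35 other replication genes, 24 mitosis genes and 11972 tested genes. The E2F core bar of the 43 genes stands at 66.7%, that of other replication genes at 51.4% and that of all tested genes at 18.3%. The homology region bar is highest in mitosis genes, at 75%.

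Rises in Nf2-knockout libraries were found in each role of the list and falls in none. For helicase activation the rise was Mcm10 alone, a call lost whichever 1 library was left out. For the E2F and cyclin E genes the rise was Ccne1 alone. Of the 43 genes, 14 rose and 0 fell at an adjusted p under 0.05 in edgeR's quasi-likelihood test over all 18218 tested genes, of which 4.11% rose and 5.18% fell. The list was chosen with earlier results of these data known, so these shares describe it and do not test it. By unadjusted p under 0.05, 28 of the 43 were higher and 0 lower, where 11.6% and 13.2% of all tested genes were. DESeq2 called 18 higher and 0 lower, where it called 4.71% of its tested genes higher. The further 4 were Prim1 (adjusted p = 0.010), Pole (0.0479), Rrm1 (0.00850) and E2f8 (0.0187). The median log2 fold change of the 43 genes was 0.51, with the middle of the list between 0.31 and 0.84, beside a median of −0.01 over all tested genes. In 33 of the 43 (76.7%) each knockout library was above each control library, where 15.5% of tested genes were. For such a gene an exact permutation test (two-sided, 3 against 3) gives p = 0.1, the smallest value it allows. None of the 43 had each knockout library below each control, which 17.4% of tested genes did. In bulk RNA, more cells in S phase and more RNA per cell cannot be told apart.

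**Figure D2:**
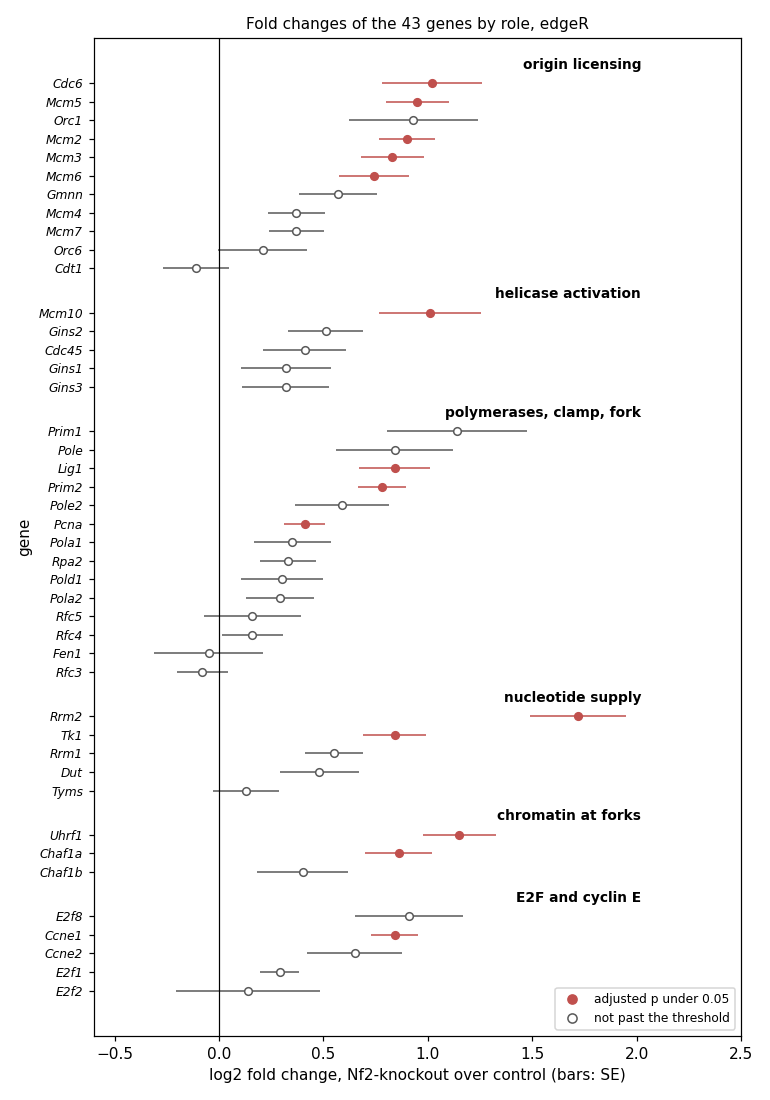
Log2 fold change of each of the 43 genes, Nf2-knockout over control (horizontal axis, bars are the SE from edgeR), grouped by role. The 14 filled points passed an adjusted p under 0.05, and all lie right of 0, from 0.41 (Pcna) to 1.72 (Rrm2).

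The number of calls changed with the libraries in the fit. With 1 library left out, between 6 and 9 of the 43 genes rose and 0 fell. The share of all tested genes that rose was lower too, at 1.64% to 3.04% against 4.11% in the main test. There were 6 when Nf2-knockout replicate 3 or control replicate 2 was missing and 9 when control replicate 1 was. Leaving out Nf2-knockout replicate 1 or 2 gave 7, and leaving out control replicate 3 gave 8. The 6 genes called in each of these 6 fits were Rrm2, Ccne1, Prim2, Mcm2, Uhrf1 and Mcm5. Chaf1a was called in 2 of them, Mcm3, Mcm6, Cdc6, Pcna and Tk1 in 1, and Mcm10 and Lig1 in 0 (adjusted p from 0.0509 to 0.135).

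Among origin licensing genes, 5 of 11 rose, with a median log2 fold change of 0.74. The MCM2-7 ring has 6 different subunits in equal number, and all 6 genes had each knockout library above each control. Mcm2 stood at 26.9, 32.8 and 36.1 CPM in Nf2-knockout replicates 1 to 3 and at 18.1, 17.1 and 16.0 CPM in control replicates 1 to 3. The fold change of Mcm2 on the log2 scale was 0.90 (SE 0.135, adjusted p = 0.0107, edgeR; chromosome 6, 88883474 to 88898780, minus strand, GRCm38). Mcm5 had the smallest spread of the 6 across knockout libraries, at 19.1, 19.5 and 20.5 CPM, against 12.1, 9.51 and 8.84 CPM in the controls (0.95, SE 0.149, adjusted p = 0.0119; chromosome 8, 75109569 to 75128439). Mcm3 stood at 18.6, 26.1 and 23.5 against 12.2, 13.7 and 12.5 CPM (0.83, adjusted p = 0.0195). Mcm6 rose from 15.8 ± 3.13 to 26.4 ± 2.99 CPM (SD, n = 3), with control replicate 1 nearest to the knockout values, at 19.4 CPM (0.74, adjusted p = 0.0377). The remaining subunits did not pass. Mcm4 had a log2 fold change of 0.37 (SE 0.135, adjusted p = 0.141) and Mcm7 of 0.37 (SE 0.132, adjusted p = 0.134), and their highest control values, 24.9 and 27.8 CPM, were close to their lowest knockout values, 26.4 and 28.4 CPM.

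FPKM are the authors' deposited fragments scaled to length and library size. In FPKM the means of the subunits had the same order in both groups, though single libraries did not all keep it. The lengths used were not at hand, and the size of levels and ratios compared between genes depends on them. In CPM the control means had another order, with Mcm7 at 24.9, Mcm4 at 23.7, Mcm2 at 17.1, Mcm6 at 15.8, Mcm3 at 12.8 and Mcm5 at 10.2. Control means in FPKM ran from Mcm4 (5.74 ± 0.256, SD, n = 3) and Mcm7 (4.87 ± 0.533) over Mcm3 (2.96 ± 0.192) and Mcm6 (2.93 ± 0.596) to Mcm5 (2.20 ± 0.387) and Mcm2 (2.13 ± 0.140). Mcm3 and Mcm6, and likewise Mcm5 and Mcm2, did not differ beyond their spread. Knockout means were 7.97 ± 1.35 for Mcm4, 6.77 ± 0.794 for Mcm7, 5.64 ± 0.962 for Mcm3, 5.27 ± 0.649 for Mcm6, 4.59 ± 0.202 for Mcm5 and 4.28 ± 0.658 for Mcm2. Mcm4 and Mcm7, with the highest control levels, were also the subunits with the smallest fold changes. The FPKM ratio of Mcm4 over Mcm2 was 2.70 ± 0.190 in control and 1.86 ± 0.0948 in knockout libraries, and the groups did not overlap. It is 1 of 8 ratios of FPKM computed within complexes, chosen after the values were seen and given without a test. Among the 8, the ratios Prim1 over Pola1, Chaf1a over Chaf1b and Ccne1 over Ccne2 overlapped between groups.

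**Figure D3:**
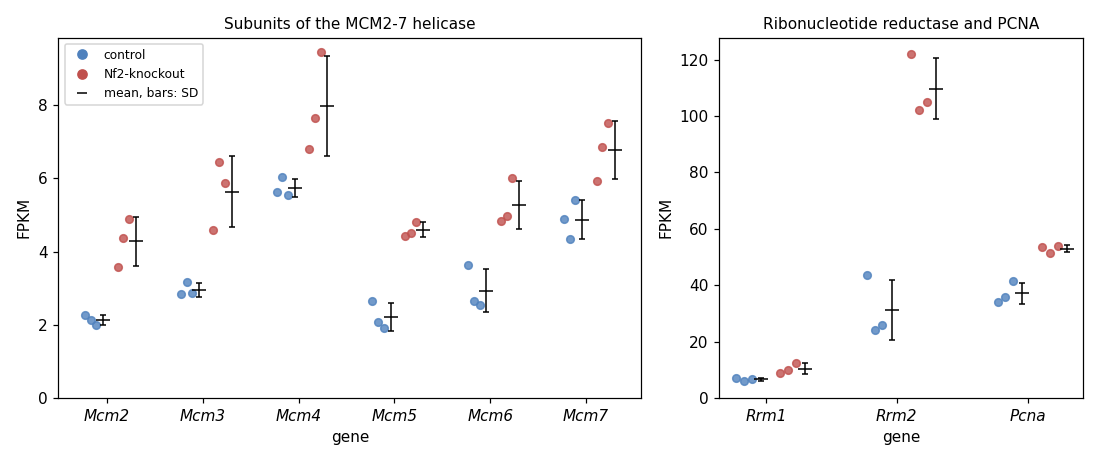
FPKM (vertical axes, from 0) of the MCM2-7 subunit genes, and of Rrm1, Rrm2 and Pcna, in each library, with the mean and SD of 3 libraries per group in black. Knockout libraries lie above control libraries for each gene drawn, and Rrm2 is the gene with the widest gap, at 102 to 122 against 24.0 to 43.6 FPKM.

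Of the loading factors, Cdc6 rose and Cdt1 did not pass. Cdc6, the ATPase that brings MCM2-7 to the origin, rose from 1.95 ± 0.432 to 3.97 ± 0.104 CPM (1.02 on the log2 scale, SE 0.239, adjusted p = 0.0425; 1 of the 6 fits without 1 library). Its partner Cdt1 stood at 6.85, 8.47 and 7.83 CPM in knockout and 9.04, 7.84 and 8.07 CPM in control libraries, with overlapping groups and a log2 fold change of −0.11 (SE 0.156, adjusted p = 0.730). Gmnn encodes geminin, which binds Cdt1 and blocks a second round of licensing. It stood at 9.11, 7.84 and 11.1 against 6.64, 5.53 and 6.64 CPM, without overlap but short of the threshold (0.57, SE 0.185, adjusted p = 0.107). Both filtered limma fits on FPKM called Gmnn higher, with medians over all tested genes of 0.072 and 0.093 against −0.01 in the main test. Cdt1 over Gmnn in FPKM, another of the 8 ratios, was 0.349, 0.505 and 0.329 in knockout and 0.632, 0.660 and 0.566 in control libraries. In the origin recognition complex, the cell cycle-regulated subunit Orc1 stood at 2.85 ± 0.635 against 1.49 ± 0.396 CPM (0.93, SE 0.310, adjusted p = 0.115) and Orc6 at 13.8 ± 2.86 against 11.9 ± 2.54 CPM (0.21, adjusted p = 0.601). The other subunits, Orc2, Orc3, Orc4 and Orc5, had log2 fold changes of 0.26, −0.12, −0.13 and 0.15, and none passed.

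Of the 5 genes that turn the loaded helicase on, 1 rose, and the median was 0.41. Mcm10, which is needed to activate the helicase, rose from 2.80, 2.28 and 2.10 CPM in control to 3.75, 5.64 and 5.07 CPM in knockout libraries (log2 change 1.01, SE 0.244, adjusted p = 0.0467), a call that no fit without 1 library kept. Cdc45 stood at 6.77 ± 1.27 against 5.10 ± 0.470 CPM (0.41, adjusted p = 0.258). The GINS genes had log2 fold changes of 0.32 (Gins1), 0.51 (Gins2) and 0.32 (Gins3), none past the threshold. Gins4, the fourth subunit, had 0.20 (adjusted p = 0.351), and at 17.3 ± 1.09 FPKM in controls it was above Gins1 (1.88 ± 0.101), Gins2 (3.49 ± 0.707) and Gins3 (1.24 ± 0.143).

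At the fork itself, 3 of 14 genes rose, the lowest median of the 6 roles (0.34). Prim2, the large subunit of the primase that lays down RNA primers, varied little within either group. It stood at 14.7, 15.3 and 15.4 CPM in knockout and 9.10, 8.58 and 8.86 CPM in control libraries (log2 change 0.78, SE 0.115, adjusted p = 0.0105; chromosome 1, 33453810 to 33669795). The catalytic primase gene Prim1 had the largest fold change of the role but varied more, at 5.72, 6.74 and 9.38 against 3.51, 2.00 and 4.43 CPM (1.14, SE 0.334, adjusted p = 0.0838). The polymerase subunits of the same complex differed less, with 0.35 for Pola1 (adjusted p = 0.295) and 0.29 for Pola2 (adjusted p = 0.333). Lig1, the ligase that seals Okazaki fragments, rose from 8.94 ± 1.10 to 15.9 ± 2.71 CPM (0.84, SE 0.171, adjusted p = 0.0280).

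Pcna, the sliding clamp, had the highest FPKM of the list in controls, at 37.1. It rose from 93.9, 98.6 and 115 CPM to 138, 133 and 137 CPM (0.41 on the log2 scale, SE 0.0970, adjusted p = 0.0439; chromosome 2, 132249162 to 132253314), the smallest rise among the 14. The clamp loader genes did not pass, with log2 fold changes of −0.08 (SE 0.121) for Rfc3, 0.16 (SE 0.146) for Rfc4 and 0.16 (SE 0.233) for Rfc5. Rfc1 and Rfc2, which complete the loader, had 0.10 and 0.15, and did not pass either. The sign of Rfc3 and of Fen1 turned with the scaling and that of Rfc5 without control replicate 2. Fen1, the flap endonuclease, stood at 13.6, 15.0 and 7.57 CPM in knockout and 10.8, 14.3 and 12.3 CPM in control libraries, with Nf2-knockout replicate 3 the lowest of all 6. In DNA polymerase epsilon, the catalytic gene Pole had 0.84 (SE 0.279, adjusted p = 0.116) and Pole2 0.59 (SE 0.224, adjusted p = 0.154), beside 0.03 and −0.01 for the small histone-fold subunits Pole3 and Pole4. Pold1, the catalytic subunit of polymerase delta, had 0.30 (adjusted p = 0.403), and Rpa2, a subunit of the single-strand binding protein RPA, 0.33 (adjusted p = 0.187).

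Nucleotide supply held the largest change. Rrm2, the small subunit of ribonucleotide reductase, which makes deoxynucleotides and whose amount limits the enzyme in cycling cells, stood at 365, 305 and 309.9 CPM in Nf2-knockout replicates 1 to 3 and at 138, 76.4 and 83.4 CPM in control replicates 1 to 3. The groups were far apart, and control replicate 1 was the highest control. The fold change was 3.29 (1.72 on the log2 scale, SE 0.230, adjusted p = 0.00823; chromosome 12, 24708241 to 24714146, plus strand), with adjusted p from 0.00684 to 0.0362 without 1 library. Rrm1, the large subunit, stood at 104, 118 and 145 against 88.6, 75.7 and 87.2 CPM and did not pass in edgeR (0.55, SE 0.138, adjusted p = 0.0540). DESeq2 called Rrm1 higher (adjusted p = 0.00850), as did the fit with library totals and both filtered limma fits on FPKM. Library totals and those FPKM fits had medians over all tested genes of 0.088, 0.072 and 0.093. Rrm2 over Rrm1 in FPKM was another of the 8 ratios chosen after values were seen. It was 14.0, 10.3 and 8.49 in knockout and 6.21, 4.02 and 3.80 in control libraries. Rrm2b, the alternative small subunit that p53 induces, had −0.09 (adjusted p = 0.749), at 1.83 ± 0.133 against 1.82 ± 0.274 FPKM.

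Tk1, the thymidine kinase of S phase, rose from 10.2, 7.62 and 9.02 CPM to 14.8, 15.8 and 17.5 CPM (0.84 on the log2 scale, SE 0.153, adjusted p = 0.0195). Tyms, which makes thymidylate by the other route, stood at 15.6 ± 1.84 against 14.2 ± 2.25 CPM with overlapping groups (0.13, SE 0.159, adjusted p = 0.666). Dut, the dUTPase that keeps uracil out of DNA, had 0.48 (SE 0.189, adjusted p = 0.173). Together 2 of the 5 nucleotide genes rose.

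Of the 3 genes that rebuild chromatin behind the fork, 2 rose. Uhrf1, which reads hemimethylated DNA and recruits the maintenance methyltransferase, stood at 10.7, 10.8 and 12.3 CPM in knockout and 4.96, 4.34 and 5.95 CPM in control libraries (log2 change 1.15, SE 0.174, adjusted p = 0.0108; chromosome 17, 56303321 to 56323486). That is 2.22-fold, the second largest fold change of the 43 genes. Chaf1a, the large subunit of the histone chaperone CAF-1, rose from 8.09, 9.81 and 11.1 to 16.3, 16.7 and 19.6 CPM (0.86, SE 0.159, adjusted p = 0.0209). Chaf1b, its middle subunit, had 0.40 (SE 0.216, adjusted p = 0.314). Rbbp4, the small subunit, which is shared with other complexes, had −0.10 (adjusted p = 0.435).

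Among the E2F and cyclin E genes 1 of 5 rose. Ccne1, cyclin E1, which activates CDK2 at the G1 to S boundary, stood at 30.4, 26.4 and 31.2 CPM in knockout and 16.7, 15.4 and 17.2 CPM in control libraries (log2 change 0.84, SE 0.113, adjusted p = 0.00825; chromosome 7, 38097984 to 38107534). Ccne2, cyclin E2, stood at 7.81, 8.17 and 8.78 against 6.90, 4.91 and 3.99 CPM (0.65, SE 0.228, adjusted p = 0.131). The activator E2f1 was narrowly spread, at 42.6, 46.8 and 42.3 against 35.1, 35.0 and 37.3 CPM, with a log2 fold change of 0.29 (SE 0.0921, adjusted p = 0.0990). The fit with library totals and each limma fit on FPKM called E2f1 higher. The median over all tested genes also lay higher there, at 0.088 with library totals and 0.072 and 0.093 in the filtered FPKM fits. It was 0.015 in the FPKM fit without a filter, against −0.01 in the main test. E2f8, an atypical E2F that represses the same targets, had 0.91 (SE 0.257, adjusted p = 0.0754). E2f2 was the gene with the lowest FPKM in controls, at 0.236. Its groups overlapped (0.14, SE 0.345), and its sign turned when Nf2-knockout replicate 1 (−0.09) or control replicate 2 (−0.04) was left out.

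Libraries within a group differed too. Nf2-knockout replicate 3 was the highest of the 6 libraries for 27 of the 43 genes (62.8%, all tested genes 18.2%), and control replicate 2 was the lowest for 25 (58.1%, all tested genes 17.9%). The median deviation of the 43 genes from their mean over the 6 libraries was 0.18, 0.23 and 0.45 on the log2 scale in Nf2-knockout replicates 1 to 3. In control replicates 1 to 3 it was −0.18, −0.41 and −0.21. Rrm2 and Pcna did not follow this order and were highest in Nf2-knockout replicate 1, and Fen1 was lowest in Nf2-knockout replicate 3. The summed level of all 43 genes was 1142, 1119 and 1213 CPM in knockout and 739.5, 624 and 699.8 CPM in control libraries. Without Rrm2 the sums were 776, 813 and 903 against 601, 548 and 616 CPM.

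**Figure D4:**
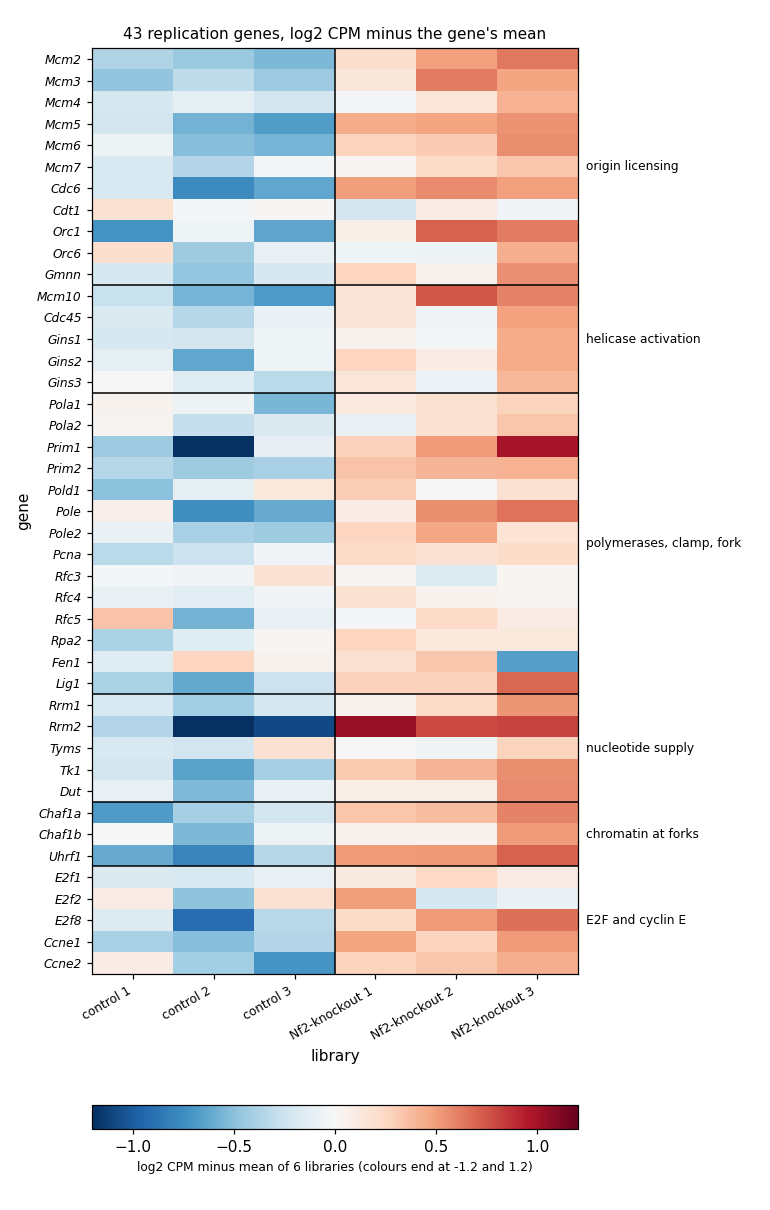
Log2 CPM of each of the 43 genes minus the gene's mean over the 6 libraries (colour; rows are genes by role, columns are libraries). Knockout columns are mostly red and control columns mostly blue, with Nf2-knockout replicate 3 the highest library for 27 genes and control replicate 2 the lowest for 25.

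Markers of other cells also moved between these libraries. Of 13 macrophage markers 12 could be tested, of which 5 fell and 0 rose (edgeR; by unadjusted p under 0.05, 10 fell and 0 rose). Their sum lay between 49 and 112 CPM in knockout and between 157 and 420.5 CPM in control libraries, the highest in control replicate 2, where the replication genes were lowest. Of 9 pericyte and smooth muscle markers, 3 rose and 1 fell, and their sum lay between 396 and 683 CPM in knockout and between 195 and 254 CPM in control libraries, the highest in Nf2-knockout replicate 3. No marker in these lists had 0 counts throughout. Erythroid markers, from a lineage that divides fast, summed to at most 1.56 CPM in any library, with Hbb-bt and Slc4a1 at 0 in all. Endothelial markers summed to between 17 and 28.6 CPM. The part of these cells in the replication genes was not tested.

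Of 43 other replication genes, a list put together by hand, 6 rose (14%) and 1 fell in edgeR, with a median of 0.25. Of all tested genes, 4.11% rose and 5.18% fell. The 6 rises became 0 without the filter on low counts. Wdhd1, which ties polymerase alpha to the helicase, rose by 0.77 on the log2 scale (adjusted p = 0.0335), the histone chaperone gene Asf1b by 0.85 (adjusted p = 0.0368) and the type II topoisomerase gene Top2a by 0.72 (adjusted p = 0.0400). The gene that fell was Top1, the type I topoisomerase, from 119, 115 and 107 CPM to 81.9, 82.5 and 90.2 CPM (−0.42, SE 0.0851, adjusted p = 0.0269). The 6 rises became 2 when control replicate 1 was left out, 1 when Nf2-knockout replicate 1 was, and 0 when replicate 2 or 3 of either group was. The fall was lost in 5 of these 6 fits and kept without control replicate 3. The deposited table's own KEGG term for DNA replication, looked up after the data were seen, holds 35 tested genes, of which 20 are among the 43. The other 15 had 0 calls in edgeR, with 2 up and 0 down by unadjusted p under 0.05 and 1 call by DESeq2, and a median of 0.15. In the table's GO term for DNA replication, 85 tested genes are not among the 43, of which 1 rose and 1 fell in edgeR, with a median of 0.11.

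Outside the 43 genes, nucleotide synthesis rose in 7 of 20 genes (35%, all tested genes 4.11%), with a median of 0.40. The 0 falls in edgeR compare with 1 gene lower at an unadjusted p under 0.05. Mthfd2, a mitochondrial enzyme that supplies one-carbon units, rose from 23.2, 30.1 and 27.8 to 48.3, 47.1 and 47.3 CPM (0.82 on the log2 scale, adjusted p = 0.00978). Its call held in each fit without 1 library. Paics, an enzyme of purine synthesis, rose from 128, 122 and 127 to 225, 205 and 169.8 CPM (0.67, adjusted p = 0.0161). The nucleoside diphosphate kinase gene Nme1 rose by 0.60 (adjusted p = 0.0240) and the serine hydroxymethyltransferase gene Shmt1 by 0.79 (adjusted p = 0.0268). The 7 rises became 4 when Nf2-knockout replicate 2 was left out, 2 when Nf2-knockout replicate 3 or control replicate 1 was, and 1 when Nf2-knockout replicate 1 or control replicate 2 was.

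In the E2F and RB network upstream of the list, 6 of 32 genes rose (18.8%, all tested genes 4.11%) and 0 fell in edgeR (by unadjusted p under 0.05, 8 up and 3 down, and 1 fall by DESeq2). The median was 0.15. Ccnd1, cyclin D1, stood at 1021, 810.3 and 1060.1 against 327, 214 and 202 CPM (1.96 on the log2 scale, adjusted p = 0.00442). Its kinase gene Cdk6 rose from 28.8 ± 0.565 to 47.9 ± 4.05 CPM (0.73, adjusted p = 0.00828). The repressors E2f6 and E2f7 rose as well, by 0.73 (adjusted p = 0.0126) and 1.52 (adjusted p = 0.0229), the latter from 1.55 ± 0.519 CPM. Only 3 genes of the network rose when replicate 3 of either group or Nf2-knockout replicate 1 was left out.

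Of 26 checkpoint and fork repair genes, 2 rose (7.69%), a share near the 4.11% of all tested genes, so the count is no result about the list. None fell (edgeR; by unadjusted p under 0.05, 7 up and 0 down), and the median was 0.36. The kinase gene Wee1, which restrains CDK activity, rose from 14.4, 13.8 and 10.8 CPM to 23.9, 19.3 and 27.4 CPM, by 0.86 on the log2 scale (adjusted p = 0.0282). The number of rises in this list was 2 without Nf2-knockout replicate 2 and 0 or 1 without each other library. Of the mitosis genes, which act after S phase, 13 of 30 rose (43.3%, all tested genes 4.11%) and 0 fell in edgeR. By unadjusted p under 0.05, 27 were up and 0 down. Their median was 0.80. In 27 of 30 (90%) each knockout library was above each control library, where 15.5% of tested genes were. Aurkb rose by 1.16 (adjusted p = 0.0171), Cdc20 by 1.10 (adjusted p = 0.0183), Nuf2 by 0.79 (adjusted p = 0.0195) and the proliferation marker Mki67 by 0.94 (adjusted p = 0.0195). With Nf2-knockout replicate 1 left out 9 rose, with Nf2-knockout replicate 3 or control replicate 2 left out 0, and with any other library left out 3 or 4. The difference between the lists was not tested.

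**Figure D5:**
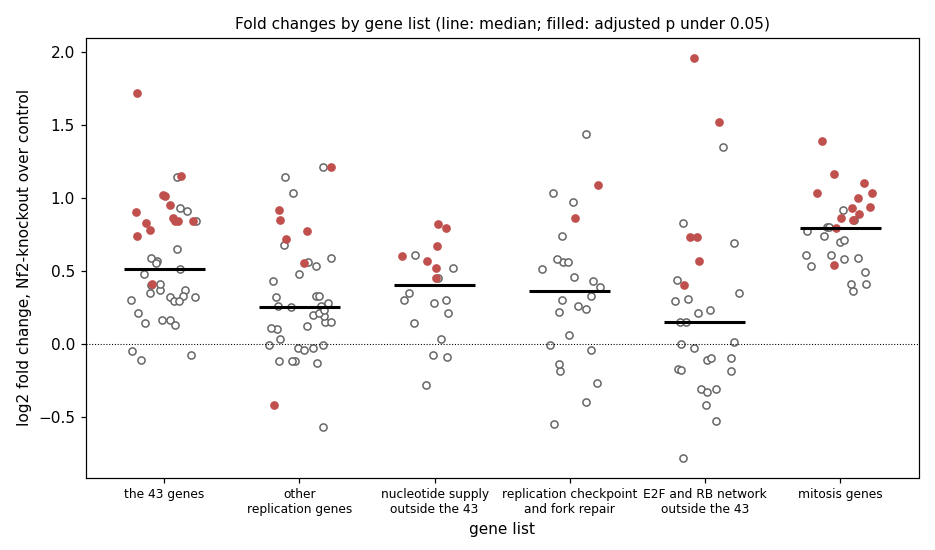
Log2 fold change, Nf2-knockout over control (vertical axis), of each tested gene in the 43 and in 5 other lists (horizontal axis, points spread sideways at random). Filled points passed an adjusted p under 0.05 and lines are medians, at 0.51 for the 43 genes, 0.25 for other replication genes and 0.80 for mitosis genes.

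The 43 genes lie on 15 chromosomes, so no single region holds them. A protein-coding gene on the opposite strand starts within 1000 bases of 9 of them (20.9%, tested protein-coding genes 14.7%). Of these 9 neighbours 0 rose and 1 fell in edgeR, with a median log2 fold change of 0.08. With 4.11% of all tested genes up and 5.18% down, such counts among 9 genes are no result about the neighbours. Beside Tk1, the divergent gene Afmid had 0.26 (adjusted p = 0.720), and beside Orc1, Prpf38a had 0.19 (adjusted p = 0.343). The neighbour that fell was Abhd12, at −0.82 (adjusted p = 0.00388) beside Gins1. Another gene with a mean count of at least 10 overlaps 12 of the 43 on the opposite strand. Strand use in counting is not stated, so reads in the overlaps could have been counted for either gene. Called genes among the 12 are Chaf1a, which shares 5245 bases with the more abundant Ubxn6 (log2 fold change 0.10, adjusted p = 0.740), Lig1, which shares 1439 bases with Zswim9 (0.13, adjusted p = 0.702), and Tk1, which shares 10567 bases with Gm20708 (0.59, adjusted p = 0.426).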

How the data were processed

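Poly(A) RNA of 6 libraries was captured on oligo(dT) beads, per the labels' protocols, and the titles gave group and replicate number. Tools listed with no role in the submitters' processing notes are HISAT2 2.0.4, StringTie 1.3.4d, cutadapt 1.9 and edgeR. The authors deposited whole-number counts per gene and library, unnormalised. They also deposited FPKM values, scaled to length and library size, where a count of 0 was written as 0.0001. How counts were made is not stated. No source used here gives the genome build. Positions equal GENCODE M21 (GRCm38) for 94.2% of shared genes and for 37 of the 43 genes, so they are given as GRCm38.

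The main test was edgeR 4.0.16 in R 4.3.3 (quasi-likelihood, filterByExpr, TMM, glmQLFit, glmQLFTest; group as the one term), two-sided, Benjamini-Hochberg over 18218 tested genes, threshold 0.05. Fold changes carry a prior count of 0.125, and the SE was taken as the size of the log2 fold change divided by the root of F. CPM uses TMM-scaled totals, and mean ± SD is over 3 libraries. Depth was 50906043 to 63748798 counts per library, which limits low genes most. Alternatives were DESeq2 1.42.0, its size factors, library totals, no filter, the replicate block, limma 3.58.1 on log2(FPKM + pseudocount) and leaving out each library. Tests were checked on simulated counts. The genes and lists were chosen with earlier results of these data known. The text names all 43 genes, up to 4 called genes of each other list by p-value, Nf2 and Mki67, apart from a result not reported here. Further genes (complex subunits, Col2a1, Col9a2, neighbours and overlapping genes, Tcf21) were named after values were seen. Promoter motifs were matched exactly.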

Additional observations from a re-analysis of the deposited data

How the results depend on the processing

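Among the replication genes 0 fell in any of the 14 alternatives. All 43 were tested in each but the filtered FPKM fits, with pseudocounts of 1 and 0.1, which tested 40 and left out E2f2, Mcm10 and Pole. In these alternatives the number that rose, 14 in the main test, was 18 with DESeq2, 14 with its size factors, 16 with library totals, 11 without the filter and, in the limma fits on FPKM, 16 and 15 of the 40 and 11 of the 43 without a filter. It lay between 6 and 9 with 1 library left out. Of all tested genes, 4.71% rose with DESeq2, 4.28% with its size factors, 6.2% with library totals and 2.22% without the filter. In the limma fits on FPKM 7.52%, 7.43% and, without a filter, 2.45% rose. With 1 library left out it was 1.64% to 3.04%. Replicate numbers were not treated as pairs, since the correlations of same-numbered libraries lay between −0.09 and 0.03. With the replicate block 9 of the 43 genes rose (all tested genes 2.14%), and so did 0 of the other replication genes (0 fell), 3 nucleotide genes, 1 checkpoint gene and 2 mitosis genes. The median log2 fold change was 0.41 to 0.58 with 1 library left out and 0.37 in the FPKM fit without a filter. Library totals moved the median of all genes from −0.01 to 0.088. In the FPKM fits it was 0.072 and 0.093 with the filter and 0.015 without it.

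For Rfc3 the sign turned with library totals (0.02) and in the 3 FPKM fits (0.02). Fen1, at −0.24 to 0.21 with 1 library left out, turned with library totals (0.05), in the FPKM fits (0.01, 0.00 and 0.01) and when Nf2-knockout replicate 3 (0.21) or control replicate 2 (0.06) was left out. Rfc5 (−0.04 to 0.42 with 1 library left out) turned without control replicate 2. E2f2 (−0.09 to 0.28) turned when Nf2-knockout replicate 1 (−0.09) or control replicate 2 (−0.04) was left out.

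Of the other replication genes, 11 rose with library totals, 0 without the filter and 10 in the FPKM fit with a pseudocount of 1. Falls numbered 2 with DESeq2, 0 with library totals and 0 in each FPKM fit. DESeq2 counted 1 fall in the E2F and RB network and 23 rises among mitosis genes, and the FPKM fit without a filter 4 mitosis genes and 1 checkpoint gene. With 1 library left out, rises ranged from 0 to 2 for other replication genes, 1 to 7 for nucleotide genes, 3 to 5 for the E2F and RB network, 0 to 2 for checkpoint genes and 0 to 9 for mitosis genes, and falls from 0 to 1 for other replication, network and checkpoint genes. On the gene's strand alone, 38.9% of the 36 promoters held an E2F core (other replication genes 22.9%, tested genes 9.99%) and 33.3% a CCAAT box (tested genes 24.9%). The cause of these shifts was not tested.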
